A study of Mus musculus with 42 samples.

Results

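The 10 genes described here are markers of adipocytes, the fat-storing cells that lie beneath the dermis of mouse skin. They were Lep, Adipoq and Retn, which encode secreted hormones, Fabp4, Lpl and Cfd, which encode a fatty acid carrier, a lipase and a secreted protease, Plin1 and Cidec, which encode lipid droplet proteins, Pparg, the regulator of fat cell formation, and Car3, a carbonic anhydrase abundant in fat and muscle. Probes were taken wherever the platform annotation gave one of these symbols. The first array design held 8 of the 10 genes, among 14442 named genes, each with 1 of 21997 probes, and all 8 passed the filter on empty values. On the second design 9 genes were found with 13 of 36924 probes. Plin1 was named on the second design only, and Cfd was named on neither.

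Adipocytes take up fatty acids that lipoprotein lipase (Lpl) frees from circulating lipoproteins, carry them on Fabp4 and store them as triglyceride in droplets coated by Plin1 and Cidec. The nuclear receptor Pparg drives the transcription of many of these genes. Leptin signals the size of the fat stores, and adiponectin and resistin act on the handling of glucose. Outside fat, Fabp4 is also made by macrophages and some endothelial cells, Lpl by muscle, and Car3 by slow muscle fibres.

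RNA of whole tissue was hybridised on 2-colour oligonucleotide arrays against a universal mouse reference RNA, a pool common to all arrays. Normal skin came from untreated adult mice whose strain, sex and age are not given in the labels used here (6 samples). Every tumour came from female Sencar mice, a strain bred for skin tumours, initiated at 7 to 8 weeks of age and treated with DMBA, a mutagen that initiates tumours, and TPA, a phorbol ester that promotes them. The low-risk group held 9 papillomas on 10 arrays and the high-risk group 10 papilloma samples. Squamous cell carcinomas gave 6 samples, treated for many weeks, and a further 10 papillomas were labelled as unknown. Some samples had tumour codes in the labels that differ only in their last letter, namely 3 pairs of high-risk and 1 pair of low-risk samples. Nothing else says whether samples came from separate mice. The p-values therefore measure the spread between these samples. In whole tissue, fewer cells of a type and less RNA per cell cannot be told apart, and tumours differed from normal skin in treatment as well as in tissue.

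Values are log2 of sample over reference, so a level above 0 means more of the RNA in the sample than in the reference pool. The log base and the direction are likely and not stated. After the sign was turned, levels of different genes could not be ranked against each other, since the reference pool sets the zero of each. The labelled arrays held 16286 to 21494 values, and 2.29% to 26% of the probes were empty. By their pattern of empty probes the labelled arrays fell into 5 sets, here A to E. Set A held normal skin 3 to 6 and high-risk papilloma 10, and set B held 6 low-risk papillomas. Set C held normal skin 1, high-risk papillomas 6 to 9 and carcinomas 5 and 6, and set E held high-risk papillomas 1 to 4. Set D was the only one with all 4 groups, with normal skin 2, low-risk papillomas 6, 7 and 10, high-risk papilloma 5 and carcinomas 1 to 4. The SD of the ratios on an array had a median of 0.70 in set C and 1.59 in set E, so a given difference is drawn on a narrower scale in set C. What sets these arrays apart is not given in the labels, and the groups lie very unevenly over them.

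A pair of libraries with different labels held almost the same values. Normal skin 1 and carcinoma 6 correlated at r = 0.98 across 16718 probes, with a median absolute difference of 0.07. Their Lep levels were 0.73 and 0.61 and their Lpl levels 0.04 and 0.03, whereas their Fabp4 levels were 2.90 and 4.24. Changes of adipocyte genes from normal skin that passed are therefore given with and without the libraries labelled normal skin 1 and carcinoma 6. Some that did not pass are given in both ways too. The changes of Lep in low-risk papillomas and of Lpl in high-risk papillomas came near a call and did not pass without the pair either. The 2 arrays of low-risk papilloma 1, labelled as a dye swap, agreed poorly, with r = 0.31 across 19899 probes. Fabp4 read 3.55 and 2.83 on these arrays, Lep 1.17 and -0.11, and Retn -0.13 and -2.04, and their mean was used as 1 replicate.

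The sequences before the transcription start of Lep and Retn are shown because these were the called hormone genes. Both are the 250 bases upstream of the start on the plus strand, from RefSeq on GRCm38.p6, with capitals marking a match to TTGCNNAA, the recognition sequence of C/EBP factors. Lep lies downstream of chr6:29059971-29060220 and Retn downstream of chr8:3655520-3655769.
Lep: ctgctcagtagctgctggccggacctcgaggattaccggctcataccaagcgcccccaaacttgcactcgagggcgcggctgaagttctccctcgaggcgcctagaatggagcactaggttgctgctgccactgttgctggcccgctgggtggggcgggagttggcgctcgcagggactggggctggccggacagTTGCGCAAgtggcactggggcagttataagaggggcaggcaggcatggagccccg
Retn: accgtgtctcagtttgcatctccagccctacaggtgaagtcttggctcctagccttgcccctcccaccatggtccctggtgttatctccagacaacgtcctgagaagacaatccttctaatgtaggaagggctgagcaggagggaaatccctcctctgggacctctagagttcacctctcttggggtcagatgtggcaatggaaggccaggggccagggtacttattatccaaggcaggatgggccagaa
In Lep the match TTGCGCAA spanned bases -55 to -48 counted from the start, and its letters read the same on both strands. The window of Retn held none of the 4 motifs searched on both strands. Promoters of 7 of the 10 genes were matched, 10 promoters in all, and Fabp4, Lpl and Car3 had none in the table. TTGCNNAA was found in 4 of these 10 promoters and in 9.56% of 32851 promoters of the same length. AGGTCA, the core site of nuclear receptors, was in 2 of the 10 and in 14% of all. TATAAA was in 1 of the 10 and in 12.4% of all, and CACGTG was in 0 of the 10 and in 6.02% of all. Such matches describe the letters and show no binding.

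Against normal skin 4 adipocyte genes passed the test in at least 1 tumour group, 1 upward and 3 downward. Lep was lower in high-risk papillomas and carcinomas, Lpl and Retn were lower in low-risk papillomas, and Fabp4 was higher in low-risk papillomas. In low-risk papillomas 3 of 8 genes passed the test (limma, Benjamini-Hochberg adjusted p below 0.05 over 18904 probes), 1 higher and 2 lower, where 7.55% of all probes tested were called, 3.94% higher and 3.61% lower. In high-risk papillomas 1 of 8 passed, lower, where 5.01% of all probes were called, 2.57% higher and 2.44% lower. In carcinomas 1 of 8 passed, lower, where 1.16% of all probes were called, 0.254% higher and 0.905% lower. The median log2 change of the 8 genes from normal skin was -0.22 in low-risk papillomas, -0.67 in high-risk papillomas and -0.38 in carcinomas, against -0.02, -0.00 and -0.00 over all probes tested. The changes of 4, 7 and 6 of the 8 genes lay below 0 in the same order, whether or not they passed. An unadjusted p below 0.05 was found for 5, 5 and 4 of 8, where 23.4%, 19.7% and 11.3% of all probes had one. These 3 comparisons share their normal skin samples. With the array set as a block in the model, 0 of 8 genes passed in any of the 6 comparisons. That model called 4 probes in low-risk papillomas, 42 in high-risk papillomas and 14 in carcinomas against normal skin, and 1240, 2285 and 1242 had an unadjusted p below 0.05.

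**Figure D1:**
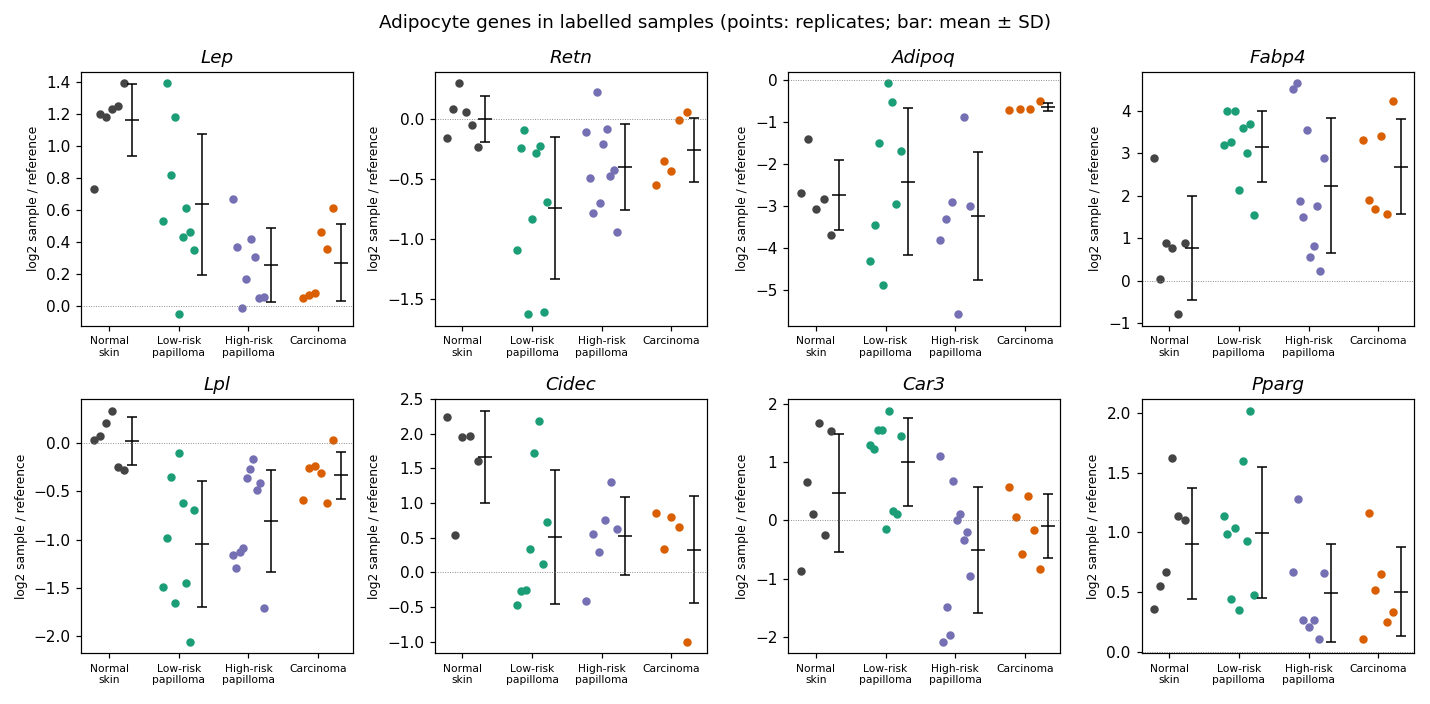
Log2 level over the reference (vertical axes, each with its own range) of 8 adipocyte genes in the 4 labelled groups (6 replicates of normal skin, 9 and 10 of low-risk and high-risk papillomas, 6 of carcinoma), with 1 point for each replicate that held a value and a bar for the mean ± SD. Lep in normal skin lies between 0.73 and 1.39, above every high-risk papilloma and carcinoma, and Fabp4 is above 0 in every tumour.

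Of the secreted hormones, Lep was called in 2 comparisons and Retn in 1. Lep read 0.73, 1.20, 1.18, 1.23, 1.25 and 1.39 in normal skins 1 to 6. Its lowest, median and highest levels were -0.05, 0.53 and 1.39 in low-risk papillomas (n = 9) and -0.01, 0.24 and 0.67 in high-risk papillomas (n = 8). The 6 carcinomas read 0.05, 0.07, 0.08, 0.46, 0.36 and 0.61. Thus normal skin did not overlap with high-risk papillomas or with carcinomas, and it overlapped with low-risk papillomas. From a mean of 1.16 ± 0.22 (SD, n = 6) in normal skin, Lep was lower by 1.87-fold in high-risk papillomas (log2 change -0.90 ± 0.20 SE, adjusted p = 0.0075). In carcinomas it was lower by 1.85-fold (log2 change -0.89 ± 0.21 SE, adjusted p = 0.0296). The change in low-risk papillomas was -0.53 ± 0.19 SE and did not pass (adjusted p = 0.0878), although it did without low-risk papilloma 2 (adjusted p = 0.0242), after arrays were scaled to 1 spread (adjusted p = 0.0152) or quantile normalised (adjusted p = 0.00965), and with array weights (adjusted p = 0.00311). Without the near-identical libraries the changes were -0.99 in high-risk papillomas (adjusted p = 0.00324) and -1.04 in carcinomas (adjusted p = 0.00884). The call in carcinomas was lost when normal skin 2, 3, 4, 5 or 6 or carcinoma 1, 2 or 3 was left out, with a highest adjusted p of 0.0975, and that in high-risk papillomas was kept without any 1 replicate.

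Lep levels are also given within the array sets that held normal skin. In set D normal skin 2 read 1.20 and the 8 tumours -0.05 to 0.46. In set A the 4 normal skins read 1.18 to 1.39 and high-risk papilloma 10 read 0.06. In set C normal skin 1 read 0.73 and the tumours 0.05 to 0.61, where both the normal skin and the highest tumour belong to the near-identical pair, so that without the pair set C gives no comparison. With the array set as a block, the change in high-risk papillomas was -0.96 ± 0.22 SE (adjusted p = 0.064) and that in carcinomas -0.76 ± 0.24 SE (adjusted p = 0.4). With a block for the range of the experiment number in the labels, below or from 50000, they were -0.73 (adjusted p = 0.138) and -0.72 (adjusted p = 0.297). Between the tumour groups Lep was ordered low-risk papillomas, carcinomas, high-risk papillomas by mean, at 0.64, 0.27 and 0.26, and no step in that order passed the test.

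**Figure D2:**
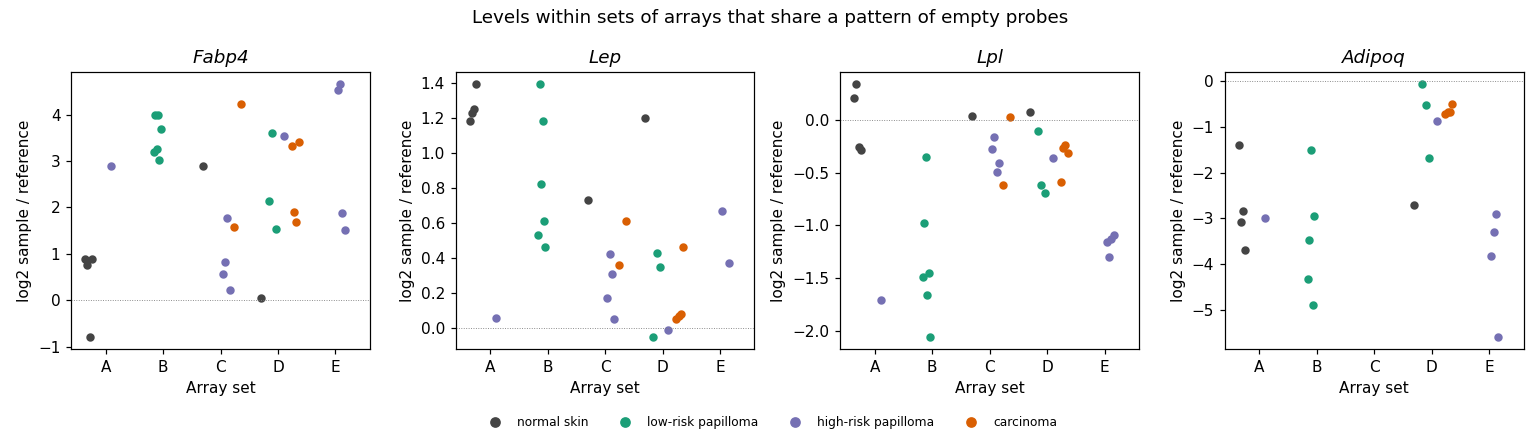
Log2 level over the reference (vertical axes) of Fabp4, Lep, Lpl and Adipoq by array set A to E (horizontal axes), with 1 point for each replicate coloured by group. Normal skin is the highest group for Lep in sets A, C and D, and in set D every tumour lies above normal skin 2 for Adipoq.

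Retn, the gene of the hormone resistin, read -0.16, 0.09, 0.30, 0.06, -0.05 and -0.23 in normal skins 1 to 6. Its lowest, median and highest levels were -1.63, -0.69 and -0.09 in low-risk papillomas and -0.94, -0.45 and 0.23 in high-risk papillomas. In the 5 carcinomas with a value it ran from -0.55 to 0.06. All groups overlapped with normal skin. In low-risk papillomas Retn was lower by 1.67-fold (log2 change -0.74 ± 0.23 SE, n = 9 and 6, adjusted p = 0.0468). This call lay close to the threshold and was lost in 20 of the 31 fits that left out 1 replicate, with a highest adjusted p of 0.121, and without the near-identical libraries (adjusted p = 0.0541). Scaling to 1 spread, quantile normalization and the array set as a block lost it too. So did leaving out the dye-swapped array, using that array as a replicate, and fitting only the compared groups. It was kept with the range of experiment numbers as a block and with array weights.

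Adipoq, the gene of adiponectin, lay below the reference in all 5 normal skins that held a value, at -2.70, -1.40, -3.07, -2.83 and -3.69 in normal skins 2 to 6. It was empty on every array of set C and in low-risk papilloma 9. Low-risk papillomas ran from -4.89 to -0.08 with a median of -2.31 (n = 8), and high-risk papillomas from -5.58 to -0.87 with a median of -3.15 (n = 6). The 4 carcinomas with a value read -0.72, -0.69, -0.68 and -0.51. These carcinomas lay above all 5 normal skins and all 6 high-risk papillomas, yet the change from normal skin of 2.09 ± 0.85 SE (adjusted p = 0.311) and that from high-risk papillomas of 2.59 ± 0.82 SE (adjusted p = 0.261) did not pass. All 4 carcinomas lay in set D. In that set the 3 low-risk papillomas read -1.68 to -0.08 and high-risk papilloma 5 read -0.87, and the mean of the 4 carcinomas was -0.65. High-risk papilloma 5 is the only 1 of its group there. Low-risk papillomas of set B had a mean of -3.42 (n = 5) and high-risk papillomas of set E a mean of -3.90 (n = 4). After arrays were scaled to 1 spread or quantile normalised, Adipoq was called higher in carcinomas than in normal skin. The same call was made with array weights and when only the compared groups were fitted.

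Of the genes of fatty acid uptake, Fabp4 rose and Lpl fell in low-risk papillomas. Fabp4 read 2.90, 0.04, 0.89, 0.76, -0.79 and 0.88 in normal skins 1 to 6, where the first is the library that resembled carcinoma 6. The lowest, median and highest levels were 1.54, 3.27 and 4.00 in low-risk papillomas and 0.23, 1.82 and 4.65 in high-risk papillomas. In carcinomas 1 to 6 it read 3.32, 1.90, 1.69, 3.42, 1.57 and 4.24. Only the library labelled normal skin 1 overlapped with low-risk papillomas or carcinomas. The mean in low-risk papillomas was 3.16 ± 0.84 (SD, n = 9) and that in normal skin 0.78 ± 1.23 (SD, n = 6), which is 5.2-fold higher (log2 change 2.38 ± 0.62 SE, adjusted p = 0.0174). The changes of 1.46 ± 0.61 SE in high-risk papillomas (adjusted p = 0.168) and 1.91 ± 0.68 SE in carcinomas (adjusted p = 0.201) did not pass. In carcinomas Fabp4 did pass after scaling to 1 spread (2.51, adjusted p = 0.0249), after quantile normalization (2.43, adjusted p = 0.0201) and with array weights (2.20, adjusted p = 0.00432). Without the near-identical libraries the change was 2.80 in low-risk papillomas (adjusted p = 0.00418), 1.88 in high-risk papillomas (adjusted p = 0.0533) and 2.02 in carcinomas (adjusted p = 0.131).

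The Fabp4 call depended on the scale of the arrays and on single libraries. It was lost without normal skin 5 (log2 change 2.06, adjusted p = 0.0606). It was also lost when arrays were scaled to 1 spread (1.52, adjusted p = 0.113) or quantile normalised (1.56, adjusted p = 0.0803). With the array set as a block it was 1.46 ± 1.04 SE (adjusted p = 0.887), and with the range of experiment numbers as a block it passed (2.38, adjusted p = 0.0311). Within set D normal skin 2 read 0.04, and every tumour there lay above it, at 1.54 or more. In set A the normal skins read -0.79 to 0.89 and high-risk papilloma 10 read 2.90. In set C the order was turned for the 4 high-risk papillomas, at 0.23 to 1.77 against 2.90 in normal skin 1. Carcinomas 5 and 6 read 1.57 and 4.24 there. Normal skin 1 belongs to the near-identical pair, so that without the pair set C gives no comparison with normal skin. When set C was left out, a choice made after seeing the data, Fabp4 was called higher in high-risk papillomas than in normal skin (log2 change 2.81 ± 0.56 SE, adjusted p = 0.00283).

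Macrophages and endothelial cells also make Fabp4, so their markers are given beside it. In low-risk papillomas 0 of 7 macrophage markers passed against normal skin, with a median log2 change of -0.29, and 2 of the 7 changed upward. Of 7 endothelial markers 1 passed, Pecam1, an adhesion protein of endothelial cells, at -1.07 ± 0.34 SE (adjusted p = 0.0491). The median log2 change of these 7 was 0.07, and 4 of them changed upward. The mean of Cd14 and Msr1, the macrophage markers measured in every replicate, ran from -1.49 to -0.80 in normal skin and from -1.21 to 0.20 in low-risk papillomas. That of Pecam1 and Tek ran from -0.03 to 0.96 in normal skin and from -0.90 to 0.25 in low-risk papillomas. The part of these cells in the Fabp4 level was not tested.

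Lpl read 0.04, 0.08, 0.21, 0.34, -0.25 and -0.28 in normal skins 1 to 6. Its lowest, median and highest levels were -2.06, -0.98 and -0.10 in low-risk papillomas and -1.71, -0.79 and -0.16 in high-risk papillomas. Carcinomas 1 to 6 read -0.59, -0.26, -0.24, -0.31, -0.62 and 0.03. The lowest normal skins overlapped with the highest of each tumour group. Lpl was lower by 2.1-fold in low-risk papillomas (mean -1.04 ± 0.66 SD, n = 9, log2 change -1.07 ± 0.27 SE, adjusted p = 0.0127). This call was kept without any 1 replicate, with adjusted p from 0.00444 to 0.0378, and without the near-identical libraries (adjusted p = 0.0199). The change in high-risk papillomas was -0.83 ± 0.26 SE and did not pass (adjusted p = 0.0584), and 5 of the 31 fits without 1 replicate moved it past the threshold. It also passed after scaling to 1 spread (-0.77, adjusted p = 0.00678), after quantile normalization (-0.81, adjusted p = 0.0116), among probes measured in every replicate (adjusted p = 0.0415), within set A with high-risk papilloma 10 alone (-1.71, adjusted p = 0.0305), with array weights (-0.57, adjusted p = 0.03) and without set C (-1.14, adjusted p = 0.0204). In carcinomas the change was -0.35 ± 0.29 SE (adjusted p = 0.76). Here too the levels differed by array set: low-risk papillomas averaged -1.33 in set B (n = 6) and -0.47 in set D (n = 3), where normal skin 2 read 0.08. With the array set as a block the low-risk change was -0.81 ± 0.38 SE (adjusted p = 0.741).

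**Figure D3:**
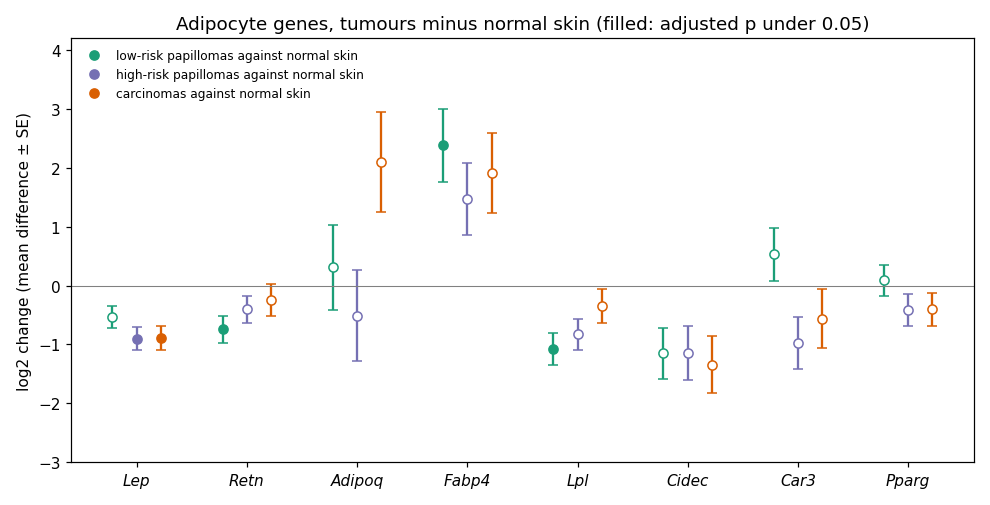
Log2 change from normal skin (vertical axis, mean difference ± SE from the model of all 4 groups) of 8 adipocyte genes in each of the 3 tumour groups, with filled points for changes that passed the test. Fabp4 at 2.38, Lpl at -1.07 and Retn at -0.74 passed in low-risk papillomas, and Lep passed at -0.90 in high-risk papillomas and -0.89 in carcinomas.

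Of the lipid droplet proteins only Cidec, which promotes the fusion of droplets, was on the first design. It read 2.25, 0.54, 1.96, 1.97 and 1.61 in normal skins 2 to 6 and was empty in normal skin 1. It ran from -0.47 to 2.18 in low-risk papillomas (n = 8), from -0.41 to 1.31 in high-risk papillomas (n = 6) and from -1.0 to 0.86 in carcinomas (n = 5). High-risk papillomas and carcinomas overlapped with normal skin through normal skin 3 alone, and low-risk papillomas overlapped more widely. The changes were -1.15 ± 0.43 SE (adjusted p = 0.101), -1.15 ± 0.46 SE (adjusted p = 0.153) and -1.34 ± 0.48 SE (adjusted p = 0.212) in the same order, and none passed. Without the near-identical libraries the change in carcinomas was -1.01 ± 0.47 SE (adjusted p = 0.349). The low-risk change passed without low-risk papilloma 6 (adjusted p = 0.047) or 7 (adjusted p = 0.0329), which lie in set D. Cidec in low-risk papillomas averaged -0.11 in set B (n = 5) and 1.55 in set D (n = 3).

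Pparg, the regulator, ran from 0.36 to 1.62 in normal skin with a median of 0.89, and all 28 replicates with a value lay above 0. Its means were 0.91 in normal skin, 1.00 in low-risk papillomas, 0.50 in high-risk papillomas (n = 7) and 0.50 in carcinomas. The groups overlapped, and no change passed. Without the near-identical libraries the means in normal skin and carcinomas were 1.02 and 0.54. High-risk against low-risk papillomas gave -0.50 ± 0.24 SE (adjusted p = 0.287), and within set D, where 1 high-risk papilloma stood against 3 low-risk ones, the sign was turned (0.47).

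Car3 was the adipocyte gene nearest to a call between papilloma groups. Low-risk papillomas ran from -0.15 to 1.88 with a median of 1.29, and high-risk papillomas from -2.08 to 1.10 with a median of -0.27. Normal skin ran from -0.87 to 1.67 and carcinomas from -0.84 to 0.57, and from -0.26 and -0.58 upward without the near-identical libraries. Of the 10 high-risk papillomas 9 lay below the low-risk mean, and the log2 change was -1.52 ± 0.40 SE, which did not pass (adjusted p = 0.0575). It passed without low-risk papilloma 6 (adjusted p = 0.023), without high-risk papilloma 5 (adjusted p = 0.019) and without high-risk papilloma 1 (adjusted p = 0.0364). The lowest high-risk papillomas, at -2.08, -1.97 and -1.48, were numbers 2, 4 and 3, all in set E, which held no low-risk papilloma. With the array set as a block the change was -0.64 ± 0.72 SE (adjusted p = 1).

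Between tumour groups no adipocyte gene passed the test. For high-risk against low-risk papillomas 0 of 8 were called, where 0.667% of all probes were, and 3 of 8 had an unadjusted p below 0.05, where 17.3% of all probes did. For carcinomas against low-risk papillomas 0 of 8 were called, where 1.12% of all probes were, and 3 of 8 had an unadjusted p below 0.05, where 16.1% did. For carcinomas against high-risk papillomas 0 of 8 were called, where 0.0423% of all probes were, and 1 of 8, Adipoq, had an unadjusted p below 0.05, where 10.5% did. The larger changes from low-risk papillomas to carcinomas were 1.77 ± 0.78 SE for Adipoq (adjusted p = 0.258), -1.10 ± 0.45 SE for Car3 (adjusted p = 0.218) and 0.71 ± 0.27 SE for Lpl (adjusted p = 0.171). A p that misses the threshold does not show that the tumour groups had equal levels.

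Over the 28 pairs of genes Pearson's r had a median of 0.11 and ran from -0.61 to 0.67, and 10 pairs lay below 0. These are descriptions over 20 to 31 replicates that share the reference and fall into array sets. Retn and Lpl had the highest r, at 0.67 over 30 replicates, and 0.51 after the group means were removed. Adipoq and Lpl had 0.58 over 23, and 0.68 after the group means were removed. Cidec and Fabp4 had the lowest, at -0.61 over 24, and Lpl and Fabp4 had -0.52 over 31. Without the group means these were -0.32 and -0.34.

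Each adipocyte gene was first centred on its own mean over the replicates. A mean of these centred values was then taken in each replicate over the genes with a value, 6 to 8 of them, so its genes differ between replicates. The genes whose pattern was nearest to this mean, among 5580 measured in all 31 replicates, were Slc7a2, an amino acid transporter (r = 0.74), and Trem2, a receptor of myeloid cells (r = 0.73). Psmd2 (0.69), Abhd14b (0.67), Macrod2 (0.66), Phf2, Sf1 and Col11a2 (each 0.65), Zfp536 (0.64) and 2700049A03Rik (0.63) followed. None of these 10 is in the list of other lipid genes. Nearest genes were also looked up for single adipocyte genes, a choice made after the data were seen. For Lpl they were Apod, an apolipoprotein (r = 0.91), Zbtb20 (0.85) and the chemokine gene Cxcl14 (0.84). For Fabp4 they were Gsta2, a glutathione transferase (r = 0.77), Cacna1e (0.75) and Gpx2, a glutathione peroxidase (0.75). For Lep they were Ift20 (r = 0.83), Pgm1 (0.82) and Prrg2 (0.82) over 29 replicates.

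Of 42 other genes of lipid storage and synthesis 37 were tested. In low-risk papillomas against normal skin 2 were higher and 2 lower, where 7.55% of all probes were called, with a median log2 change of -0.08 against -0.02 over all probes. Fabp5, the fatty acid carrier of the epidermis, was higher by 1.88 ± 0.56 SE (adjusted p = 0.0347), and Lipe, the hormone-sensitive lipase, was higher by 0.75 ± 0.20 SE (adjusted p = 0.0204). Apoe, a lipoprotein component, had a change of -1.99 ± 0.46 SE (adjusted p = 0.00721), and Scd1, a fatty acid desaturase, one of -1.36 ± 0.37 SE (adjusted p = 0.0229). In high-risk papillomas 1 of 37 passed, Scd1, at -1.38 ± 0.37 SE (adjusted p = 0.0259), where 5.01% of all probes were called, and the median change was -0.15. In carcinomas 0 of 37 passed and the median change was 0.08. The smallest p there belonged to Apoe at -1.57 (adjusted p = 0.134), Cidea, a droplet protein of brown fat and sebaceous glands, at -1.01 (adjusted p = 0.202), and Mest at 1.60 (adjusted p = 0.273). Between tumour groups 0 of 37 passed in each comparison.

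A few markers of other tissues passed against normal skin, where 7.55%, 5.01% and 1.16% of all probes did in the low-risk, high-risk and carcinoma groups respectively. Of 12 striated muscle genes 2 were lower in low-risk papillomas than in normal skin, Acta1, skeletal muscle actin, at -4.24 ± 0.88 SE (adjusted p = 0.00404) and Tnnc2, a troponin, at -2.25 ± 0.63 SE (adjusted p = 0.0302). The same 2 were lower in high-risk papillomas, at -3.30 (adjusted p = 0.0273) and -2.23 (adjusted p = 0.0167), and 0 of 12 passed in carcinomas. The mean of 4 muscle genes measured in every replicate ran from -0.09 to 1.66 in normal skin, from -0.65 to 0.91 in low-risk papillomas, from -0.12 to 1.26 in high-risk papillomas and from -0.06 to 1.29 in carcinomas. Muscle also makes Lpl and Car3, and the part of muscle in their levels was not tested. Of 5 sebaceous gland genes Acsbg1 was lower in low-risk papillomas (-1.13 ± 0.29 SE, adjusted p = 0.0144). The median log2 change of these 5 there was -0.40, and 2 of them changed upward. In high-risk papillomas and carcinomas 0 of 5 passed, the medians were 0.16 and 0.10, and 3 of 5 changed upward in each. Of 9 dermal genes Dcn was lower in high-risk papillomas (-3.49 ± 0.97 SE, adjusted p = 0.036). The median log2 change of these 9 was 0.01, and 5 of them changed upward. Krt15, a basal keratin, was the 1 of 8 keratinocyte genes called in each tumour group against normal skin, with log2 changes from -3.0 to -2.22. The median change of these 8 was 0.15 in low-risk papillomas, 0.62 in high-risk papillomas and -0.58 in carcinomas. In the same order 5, 6 and 2 of them changed upward. Of 3 blood genes 2 were higher in low-risk papillomas, Hba-a1, a globin (1.75, adjusted p = 0.0279), and Alas2, an enzyme of haem synthesis in red cells (1.26, adjusted p = 0.045). Hbb-b2, another globin, was higher than in normal skin by 3.51 in high-risk papillomas (adjusted p = 0.00235) and 3.34 in carcinomas (adjusted p = 0.0167). It was also higher than in low-risk papillomas, by 2.94 in the high-risk group (adjusted p = 0.0157) and 2.77 in carcinomas (adjusted p = 0.0344). In these comparisons with low-risk papillomas 0.667% and 1.12% of all probes were called. Hbb-b2 was the only 1 of the 3 blood genes that changed upward in each. The median log2 change of the 3 was -0.24 in the high-risk group and -0.06 in carcinomas. Of 7 genes of organs other than skin 1, Umod, was lower in low-risk papillomas. The median log2 change of these 7 was 0.00, and 4 of them changed upward. The list of keratinocyte genes lay below 0 as deposited on 30 of 31 arrays with the sample in Cy3.

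The 10 papillomas of unknown risk were measured on the second design with other probes, so their levels are given beside no labelled group. Fabp4 lay above the reference in all 10, from 1.28 to 3.83 with a median of 2.99. Both Car3 probes lay below it in all 10, from -5.73 to -0.41 and from -5.0 to -0.13. The 2 Lpl probes had medians of -2.41 and -2.36, and 1 of them read 1.82 in papilloma 4, whereas the other stayed below 0 in all 10. Plin1, the main coat protein of the fat droplet, ran from -3.64 to 1.79 with a median of -1.59 and lay below 0 in 8 of 10. Papilloma 6 had both the highest Plin1 and the highest Adipoq, at 1.48, where Adipoq had a median of -0.65. Cidec ran from -1.78 to 0.83 with a median of -0.55.

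Lep ran from -0.91 to 4.78 with a median of 1.23 in 9 unknown papillomas. Retn ran from -0.74 to 9.03 with a median of 0.67. The highest levels of Lep and of Retn were both in papilloma 2, which also had the lowest Plin1 and Cidec. The 3 Pparg probes had medians of 0.54, 0.44 and 1.08 and samples ran from -0.21 to 0.75, -0.91 to 1.56 and 0.41 to 3.35 on them. As these samples carry no risk label, no comparison was made.

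**Figure D4:**
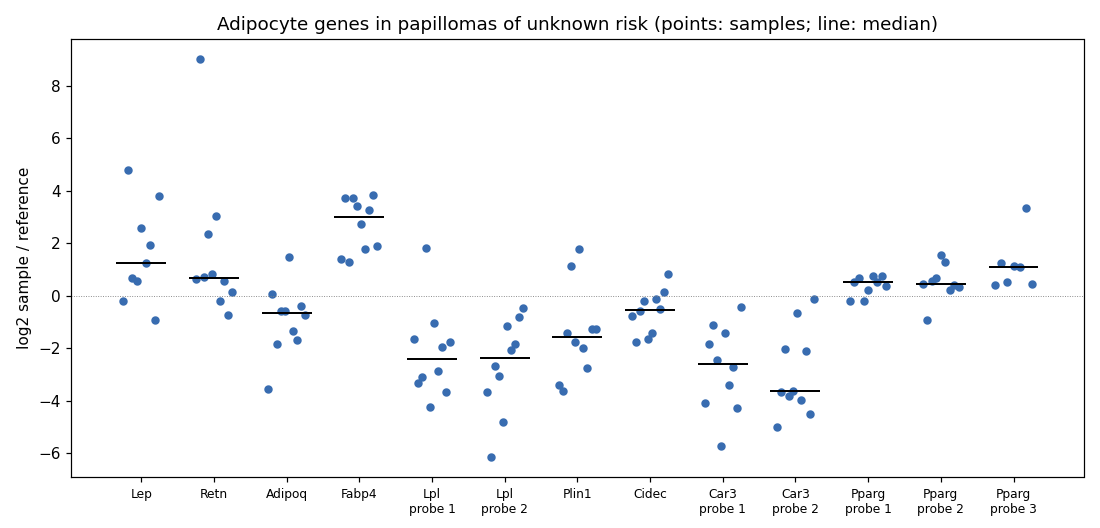
Log2 level over the reference (vertical axis) of 9 adipocyte genes, by probe (horizontal axis), in 10 papillomas labelled as unknown on the second array design, with 1 point for each sample that held a value and a line at the median. Fabp4 lies above 0 in all 10 samples, and both probes of Car3 lie below 0 in all 10.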

How the data were processed

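As deposited, each probe has a log2 ratio of sample and reference channel on every array, per the labels of a common-reference design. The authors' normalization, filters and background correction are not given in the sources used here. RNA was extracted with TRIzol and RNeasy and labelled by the aminoallyl method, per the labels' protocols. Signs of all arrays but the dye-swapped one were turned to give sample over reference, and each array was centred on its median. Probes were named from the platform annotation, 1 per symbol. A probe was tested when measured in at least 3 replicates of each group and 70% of 31. A single model of all groups was fitted with limma 3.58.1 (R 4.3.3), with Benjamini-Hochberg adjustment over 18904 probes at 0.05, and the fit was tested on simulated data. Array sets came from complete-linkage clustering of empty probes. The number of arrays limits the precision. All adipocyte genes are named, other lipid genes where called, or else the 3 with the smallest p in carcinomas against normal skin, and the 10 genes nearest the adipocyte mean. Members and lists were chosen with earlier results of these data known. Marker genes of other cells were named where called. Alternatives were other scalings, filters, blocks and weights, and leaving out each replicate.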

Additional observations from a re-analysis of the deposited data

Results flagged for a closer look

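Of 32 groups of 4 to 10 values tested for a single far sample, 2 held one, where chance gives about 1 in 20. Cidec in carcinoma 6 was -1.0, with the next of the 5 carcinomas at 0.33. Lep in normal skin 1 was 0.73, with the next of the 6 normal skins at 1.18. Both values come from the near-identical pair of libraries in array set C. Without the pair the lowest Cidec among 4 carcinomas was 0.33, and Lep in normal skin had a mean of 1.25 ± 0.08 (SD, n = 5).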

How the results depend on the processing

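Counts of adipocyte genes called were compared over alternative scalings, filters, blocks and weights. For low-risk papillomas against normal skin (3 genes) the count fell to 0 with the array set as a block, within set D and among experiment numbers from 50000, and to 1 when only the compared groups were fitted. It was 4 with the range of experiment numbers as a block and with array weights. Quantile normalization also called 3, but these were Cidec, Lep and Lpl in place of Fabp4, Lpl and Retn. For high-risk papillomas against normal skin (1 gene) it was 0 with the array set, the range of experiment numbers or the replicate number as a block, and within sets C and D or experiment numbers from 50000. It was 2 after scaling to 1 spread, quantile normalization and within set A, 3 without set C (chosen after seeing the data) and 4 with array weights. For carcinomas against normal skin (1 gene) it was 0 with the same 3 blocks, within sets C and D, from 50000, among probes measured in every replicate (which kept 3 of 8 genes and not Lep) and with the dye-swapped array as a replicate of its own, 2 with only the compared groups, 3 after scaling or quantile normalization and 4 with array weights. High-risk against low-risk papillomas gave 1 gene, Car3, in probes measured in every replicate, with the swapped array as a replicate and with array weights, and carcinomas against low-risk papillomas gave 1 with array weights. Leaving out 1 replicate gave counts of 1 to 4, 1 to 2 and 0 to 1 against normal skin in the same order and 0 to 1 for high-risk against low-risk papillomas. Signs were turned within array sets for Pparg in high-risk against low-risk papillomas (set D, 0.47) and, in high-risk papillomas against normal skin, for Car3 (set C, 0.76, and set D, 0.04) and Fabp4 (set C, -2.05). Changes with an unadjusted p of 0.05 or more were turned in further cases, of which only some are given. Those of Adipoq (1.83) and Pparg (0.73) in high-risk papillomas against normal skin were turned in set D. In set D Fabp4 read 3.55 in high-risk papilloma 5 and averaged 2.43 in low-risk papillomas, where the model of all groups gave -0.92. In set C Car3 averaged -0.50 in carcinomas and read -0.87 in normal skin 1, where that model gave -0.56. The causes were not tested. In set D normal skin and the high-risk group are 1 sample each, as are normal skin in set C and the high-risk group in set A, and these are assumed to vary like the other groups. The turned signs given here for set C rest on normal skin 1, which belongs to the near-identical pair.

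Calls over all probes ranged from 4 (array set as a block) to 4519 (array weights) in low-risk papillomas against normal skin, from 0 (within set C, with 1645 at an unadjusted p below 0.05) to 3402 in high-risk papillomas and from 0 (within set C, 40) to 3158 in carcinomas, each highest with array weights. Between tumour groups they ranged from 0 to 1187 for high-risk against low-risk papillomas, 0 to 1776 for carcinomas against low-risk papillomas and 0 to 252 for carcinomas against high-risk papillomas, with 272, 1235 and 691 at an unadjusted p below 0.05 where limma called 0. Replicate numbers did not pair the samples: same-numbered samples of different groups had a median correlation of -0.01 over 37 pairs, and others 0.01 over 317. With the replicate block 2 adipocyte genes, Fabp4 and Lpl, were called in low-risk papillomas and 0 elsewhere.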
